A study of Mus musculus with 6 samples.

Results

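Immunoglobulin segment probe sets of a mouse gene array were examined in pre-B leukaemia cells as a possible readout of which heavy and light chain segments the cells transcribed. A probe set (a group of probes that the array reports as 1 value) was included when it carried a gene symbol and every one of its symbols was a heavy, kappa or lambda V segment, a kappa J segment or a constant region other than that of the mu chain. Of 35556 probe sets on the array, 26 met this rule: 7 of the heavy chain locus, 17 of the kappa locus and 2 of the lambda locus. They were chosen by symbol, and the rule uses none of their values.

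The cells were pre-B cells of the C57BL/6 strain, transformed with BCR-ABL1, a constitutively active tyrosine kinase that drives acute lymphoblastic leukaemia (ALL), and homozygous for floxed Inpp5d, which encodes the lipid phosphatase SHIP1. On 3 arrays, labelled CRE, the cells had been transduced with PMIP-CRE-ERT2, a Cre recombinase made tamoxifen-dependent. On 3 arrays, labelled ERT, they had been transduced with PMIP-ERT2, which lacks Cre. Cells of both groups carried a puromycin-selected vector and were treated with 4-hydroxytamoxifen at 0.5 µM for 2 days, so the comparison was of Cre with no Cre in floxed cells, with no Cre arm in cells lacking floxed alleles. The labels name no separate cultures or separately transformed lines behind the replicates, and p-values therefore cover only the spread between these arrays, which may be technical. Because the design held bulk RNA, a smaller share of cells using a segment and less RNA of that segment per cell cannot be told apart.

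Each B cell precursor assembles its heavy chain gene by joining a V, a D and a J segment upstream of the mu constant region, and joins a kappa or lambda V segment to a J segment later, at the pre-B stage. A clone keeps its own joined V segments, so in a clonal population a few V segments are transcribed at a high level and the others only as germline transcripts of unrearranged segments, if at all. Class-switched constant regions such as those of the gamma and alpha chains are normally used by mature B cells and plasma cells, not by pre-B cells.

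The coverage of the loci limited what this readout could show. The 26 probe sets carried 28 different symbols, all of which were found by identifier in the RefSeq gene table for assembly GRCm38.p6. RefSeq lists 120 heavy chain V segments outside the pseudogenes, of which the probe sets named 2, Ighv3-6 and Ighv1-26, together with the pseudogene Ighv1-33. Of 102 kappa V segments they named 17, and of 3 lambda V segments 2, so 21 of 225 V segments in all were named. No D segment was named. The heavy chain symbols lie on chromosome 12, the kappa symbols on chromosome 6 and the lambda symbols on chromosome 16. Among probe sets of the array, 12146 had no name in the annotation table used, and these can include further segments that were not analysed here.

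The probe sets also overlapped in what they were matched to. Only 12 carried a single symbol and 14 carried several, up to 8 for 1 kappa probe set, and 15 shared at least 1 matched transcript accession with another of the 26. A transcript of a rearranged gene holds V and constant parts together, so a probe set listed under both Ighv3-6 and Igha cannot be assigned to either part from its name. Both probe sets named Igha alone were matched to the same 7 accessions. Values are therefore given by probe set, with its number, and are compared between arrays. Ranks by brightness (the mean log2 value over the 6 arrays) place probe sets on the array and do not compare amounts of RNA between segments.

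None of the 26 probe sets passed the test between the groups. With limma over all 35556 probe sets and Benjamini-Hochberg adjustment, 0 of 26 had an adjusted p under 0.05, against 0.0562% of all probe sets. The smallest adjusted p among them was 0.199. At an unadjusted p under 0.05 there were 2 of 26, against 19.8% of all probe sets. Over the 18706 named probe sets at or above the 25th percentile of brightness, where 5.34% of probe sets were called, 15 of the 26 could be tested and 0 were called. The 95% interval of the difference lay within 1 log2 unit of 0 for 25 of 26 probe sets, and within 0.5 log2 units for 22 of them. Of all 35556 probe sets, 34149 and 28812 had intervals within these limits. All differences below are log2 values of the CRE-labelled arrays minus those of the ERT arrays, with the standard error of the moderated fit.

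**Figure D1:**
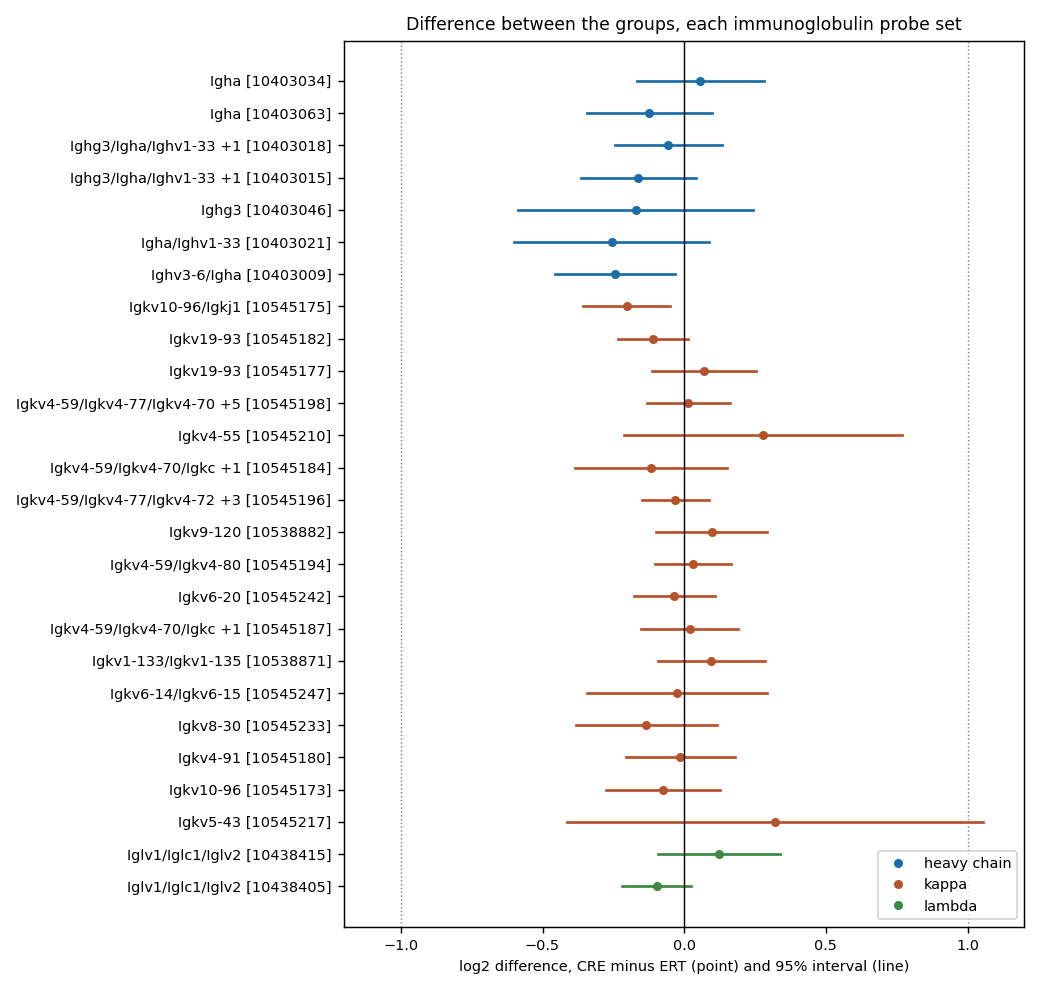
Log2 difference between CRE-labelled and ERT arrays (x axis; CRE minus ERT) for each of the 26 immunoglobulin probe sets (rows), with points for the difference, lines for the 95% interval of the fit and colour for the locus; dotted lines mark 1 log2 unit. Only the interval of Igkv5-43, from -0.41 to 1.05, reaches past a dotted line, and 2 intervals, of Ighv3-6/Igha and Igkv10-96/Igkj1, lie wholly below 0.

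The targeted gene did not follow the labels. Inpp5d had log2 values of 13.37, 13.34 and 13.34 on the CRE-labelled arrays and 13.20, 13.21 and 13.17 on the ERT arrays, a difference of 0.16 ± 0.043 (SE) that did not pass (limma adjusted p = 0.187). The labels do not say which exons were floxed, so a probe set outside them would check nothing. Signs below follow the CRE label, whatever its Inpp5d status. B lineage identity was plain on all arrays. Of 9 B lineage markers on the array, 8 lay above the 75th percentile of brightness, among them Cd79a, Cd79b, Pax5 and Ebf1, and the list averaged 12.69 to 12.72 on the CRE-labelled arrays and 12.75 to 12.76 on the ERT arrays. The ninth, Cd22, an inhibitory co-receptor, had 8.51, 8.49 and 8.38 on the CRE-labelled arrays and 8.88, 9.01 and 9.01 on the ERT arrays (-0.51 ± 0.063, limma adjusted p = 0.0831 over all probe sets and 0.0071 over the named and brighter ones).

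The 4 heavy chain probe sets with a V segment in their name, between the 15.5th and 55.5th percentile of brightness, did not pass. The probe set named Ighv3-6/Igha (10403009) had log2 values of 6.32, 6.02 and 6.28 on the CRE-labelled arrays and 6.47, 6.43 and 6.44 on the ERT arrays. All of its CRE-labelled values lay below all of its ERT values, and array CRE 2 was the lowest. The difference was -0.24 ± 0.087 (adjusted p = 0.222). Ighv3-6 is a heavy chain V segment, and Igha encodes the constant region of IgA.

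The probe set named Igha/Ighv1-33 (10403021) had values of 6.55, 6.71 and 6.69 on the CRE-labelled arrays and 6.76, 7.22 and 6.73 on the ERT arrays. The groups did not overlap, but CRE 2 and ERT 3 nearly met, and array ERT 2 lay 0.52 above the median of the other 5. The difference was -0.26 ± 0.14 (adjusted p = 0.341), and without ERT 2 it was -0.097. Ighv1-33 is annotated as a pseudogene, so it could not itself encode a receptor.

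Both probe sets named Ighg3/Igha/Ighv1-33/Ighv1-26 had overlapping groups. The first (10403015) had values of 7.88, 7.85 and 8.12 on the CRE-labelled arrays and 8.15, 8.12 and 8.07 on the ERT arrays, with a difference of -0.16 ± 0.083 (adjusted p = 0.318). The second (10403018) had values of 8.55, 8.43 and 8.65 against 8.64, 8.65 and 8.50, with a difference of -0.057 ± 0.077 (adjusted p = 0.684). In both, CRE 3 lay within or above the ERT values while CRE 2 was the lowest of the 6 arrays.

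The 2 probe sets named Igha alone, for a switched constant region, were the 2 brightest of the 26. The probe set of Igha numbered 10403034 had values of 9.40, 9.16 and 9.41 on the CRE-labelled arrays and 9.34, 9.31 and 9.15 on the ERT arrays, a difference of 0.057 ± 0.092 (adjusted p = 0.735). It was the brightest of the 26 and stood at the 64.9th percentile of all probe sets. The other probe set of Igha (10403063) had values of 9.05, 8.90 and 9.11 against 9.23, 9.23 and 8.99, a difference of -0.12 ± 0.091 (adjusted p = 0.449). The groups overlapped in both, and although both were matched to the same accessions, their differences as deposited had opposite signs.

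The probe set named Ighg3 (10403046), for the constant region of IgG3, had values of 7.92, 7.29 and 7.81 on the CRE-labelled arrays and 7.95, 7.72 and 7.87 on the ERT arrays. Array CRE 2 stood 0.58 below the median of the other 5, which lay between 7.72 and 7.95. The difference was -0.17 ± 0.17 (adjusted p = 0.572), and without CRE 2 it was 0.019 (adjusted p = 0.931). No probe set of the 26 carried the symbol of the delta or epsilon constant region.

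Among kappa V segments were the widest spreads between arrays, and none passed the test. Igkv5-43 (10545217) had log2 values of 5.91, 5.06 and 4.91 on the CRE-labelled arrays and 4.58, 5.23 and 5.11 on the ERT arrays. Array CRE 1 was the highest and ERT 1 the lowest, 1.33 apart, and the groups overlapped. Its difference of 0.32 ± 0.30 was the highest of the 26 (adjusted p = 0.554), with an interval from -0.41 to 1.05, and without CRE 1 it was 0.0091. It was also the dimmest of the 26, at the 6.2nd percentile of all probe sets.

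Igkv4-55 (10545210) had values of 7.51, 8.14 and 7.58 on the CRE-labelled arrays and 7.65, 7.19 and 7.56 on the ERT arrays. Array CRE 2 was the highest, 0.58 above the median of the other 5, and ERT 2 was the lowest. The difference was 0.28 ± 0.20 (adjusted p = 0.448), with an interval from -0.21 to 0.77, and without CRE 2 it was 0.078. Igkv5-43 and Igkv4-55 were the 2 of 26 probe sets whose range over the 6 arrays lay above the 90th percentile of probe sets of similar brightness, at 91.7 and 93.8. By construction about 10% of probe sets do so, 3560 of 35556 on this array. The median of this percentile over the 26 was 37.0. The highest value lay on CRE 1 for Igkv5-43 and on CRE 2 for Igkv4-55.

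Igkv10-96 was read by a probe set that also carries Igkj1, the J segment of kappa rearrangements nearest to the V cluster. That probe set (10545175) had values of 8.06, 8.11 and 7.95 on the CRE-labelled arrays and 8.18, 8.30 and 8.26 on the ERT arrays. All CRE-labelled values lay below all ERT values. The difference was -0.20 ± 0.063, with an interval from -0.36 to -0.050, and its adjusted p of 0.199 was the smallest of the 26. Over the named and brighter probe sets its adjusted p was 0.0738. A dimmer probe set named Igkv10-96 alone (10545173) stood at the 6.9th percentile. Its groups overlapped, and its difference was -0.074 ± 0.083 (limma adjusted p = 0.617).

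As deposited, probe sets of 1 segment did not always share a direction. For Igkv19-93, probe set 10545182 had values of 8.01, 8.03 and 7.97 on the CRE-labelled arrays and 8.09, 8.18 and 8.08 on the ERT arrays, with groups apart and a difference of -0.11 ± 0.051 (adjusted p = 0.287). Probe set 10545177 of the same segment had values of 7.79, 7.97 and 7.82 against 7.80, 7.88 and 7.69, with overlapping groups and a difference of 0.071 ± 0.075 (adjusted p = 0.598). Among the 5 pairs of probe sets with identical symbols, the signs as deposited were the same in 1 pair and opposite in 4. This depended on the scaling. After centring the arrays on their medians, both differences were negative for Igkv19-93 (-0.032 and -0.21) and for Igha (-0.045 and -0.23). They were also both negative for Igkv4-59/Igkv4-70/Igkc/Igkv4-80 (-0.083 and -0.22), while the lambda pair kept opposite signs.

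The other kappa V probe sets named here had overlapping groups. Igkv9-120 (10538882) had values of 7.70, 7.52 and 7.41 on the CRE-labelled arrays and 7.42, 7.48 and 7.43 on the ERT arrays, a difference of 0.096 ± 0.080. Outside the rule, 2 probe sets carrying Igkv9-120 together with the other symbol Map3k20 had differences of -0.12 (10538880) and -0.089 (10538921). Igkv8-30 (10545233) had values of 6.27, 5.91 and 6.01 against 6.12, 6.26 and 6.21, a difference of -0.13 ± 0.10. Array CRE 1, high, lay farthest from the other 5 for Igkv9-120, and CRE 2, low, for Igkv8-30. Igkv1-133/Igkv1-135 (10538871) averaged 6.53 ± 0.11 on the CRE-labelled arrays and 6.43 ± 0.092 on the ERT arrays (SD, n = 3 each), a difference of 0.096. Igkv6-14/Igkv6-15 (10545247) averaged 6.22 ± 0.11 and 6.24 ± 0.24 (CRE-labelled and ERT arrays, SD, n = 3 each), a difference of -0.025, with its lowest value, 5.96, on array ERT 2. Their limma adjusted p values lay between 0.465 and 0.924. The 4 remaining kappa V probe sets had differences from -0.074 to 0.031, with adjusted p of 0.617 or more.

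Probe sets that join kappa V segments with Igkc, the only kappa constant region, included the steadiest. The probe set with 8 symbols (10545198) had values of 7.66, 7.56 and 7.66 on the CRE-labelled arrays and 7.69, 7.59 and 7.55 on the ERT arrays, a difference of 0.014 ± 0.060 (adjusted p = 0.908). The probe set named Igkv4-59/Igkv4-77/Igkv4-72/Igkv4-68/Igkc/Igkv4-80 (10545196) had values of 7.56, 7.55 and 7.47 against 7.55, 7.54 and 7.59, a difference of -0.031 ± 0.048 (adjusted p = 0.725). Their values over all 6 arrays spanned 0.14 and 0.11 log2 units, and the intervals of the differences ran from -0.13 to 0.16 and from -0.15 to 0.087. Of the pair named Igkv4-59/Igkv4-70/Igkc/Igkv4-80, probe set 10545187 had a difference of 0.020 ± 0.071 and probe set 10545184 of -0.12 ± 0.11, the second with CRE 2 as the lowest array at 7.34 and ERT 2 as the highest at 7.80.

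Both lambda probe sets carried the symbols Iglv1, Iglc1 and Iglv2. Probe set 10438405 had values of 7.04, 7.0 and 7.0 on the CRE-labelled arrays and 7.14, 7.15 and 7.05 on the ERT arrays. Its groups did not overlap, its range over 6 arrays was only 0.15, and its difference was -0.098 ± 0.049 (adjusted p = 0.313). Probe set 10438415 had values of 7.33, 7.47 and 7.27 against 7.27, 7.09 and 7.34, with overlapping groups and a difference of 0.12 ± 0.089 (adjusted p = 0.447). The lambda locus therefore showed no direction common to its probe sets.

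**Figure D2:**
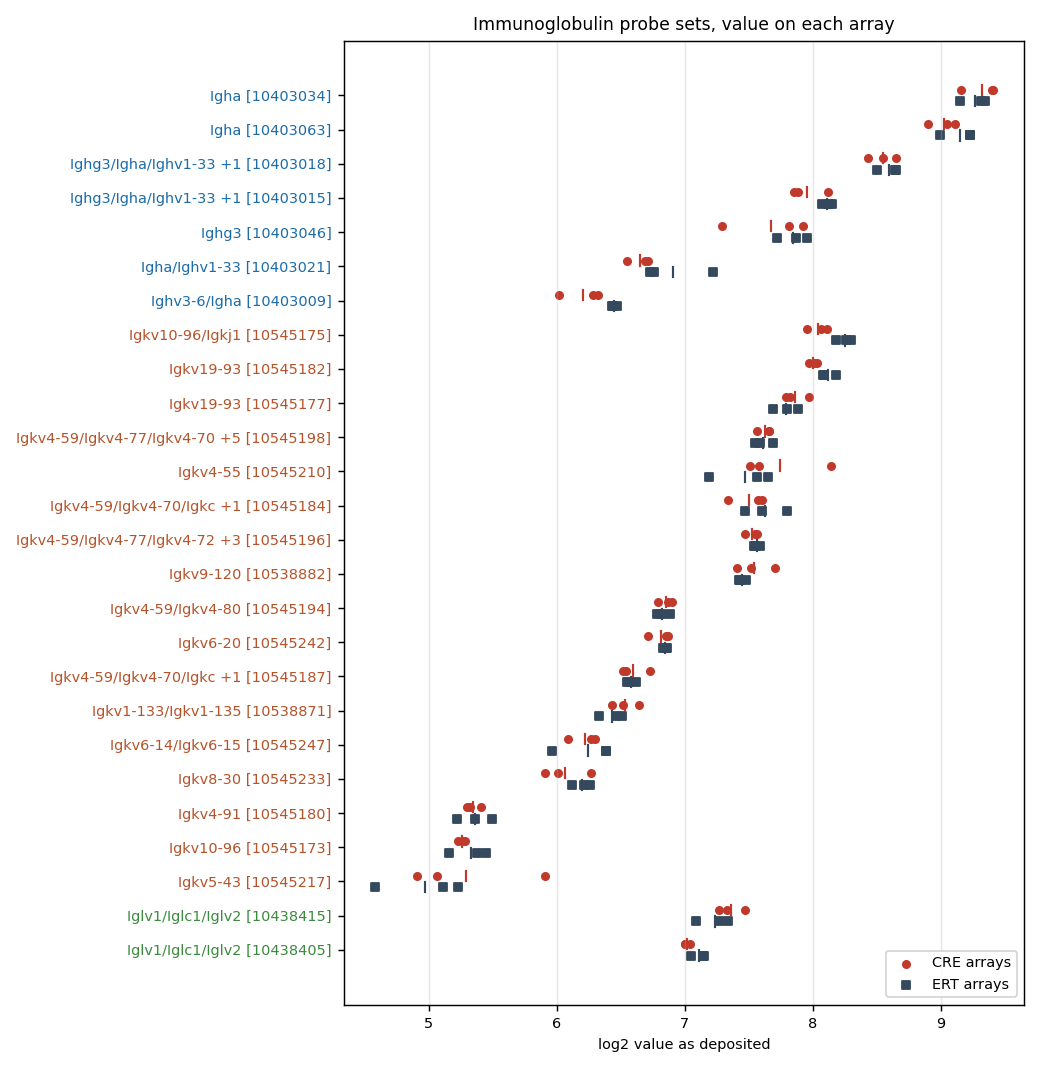
Deposited log2 value (x axis) of each immunoglobulin probe set (rows, with symbols and probe set number, label colour by locus) on each array, with circles for CRE-labelled arrays, squares for ERT arrays and short bars for group means of 3 arrays. The groups overlap in 21 of 26 rows, and the widest spreads are those of Igkv5-43 and Igkv4-55.

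Taken by locus, most heavy chain probe sets had lower means on the CRE-labelled arrays, and the kappa probe sets were evenly split as deposited, though not after other scalings. Of the 7 heavy chain probe sets, which share symbols with one another, 6 had a negative difference, with a median of -0.16. The mu chain probe sets, given below, were not counted here and had differences of 0.11, 0.13 and -0.15. Of the 17 kappa probe sets, 9 had a negative and 8 a positive difference, with a median of -0.014. After quantile normalization, cyclic loess or centring the negative kappa differences numbered 14, 14 and 15. Over all 26 the median was -0.033, against a median of 0.046 over all probe sets and of 0.095 over the 20900 probe sets in the same range of brightness. These are counts of signs and medians without a test, and without array CRE 2 the heavy chain split became 4 negative and 3 positive with a median of -0.064.

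Separation of the groups was counted in the same way. The CRE-labelled values lay wholly below the ERT values in 5 of 26 probe sets, against 10.9% of all probe sets. They lay wholly above in 0 of 26, against 17.5% of all probe sets. Among the 20900 probe sets in the same range of brightness, they lay wholly below in 838 and wholly above in 4335. The 5 of the 26 were those of Ighv3-6/Igha, Igha/Ighv1-33, Igkv10-96/Igkj1, Igkv19-93 (10545182) and Iglv1/Iglc1/Iglv2 (10438405). They span all 3 loci, and none reached an adjusted p under 0.05.

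The arrays did not contribute evenly. Array CRE 2 was the lowest of 6 in 9 of 26 probe sets, and in 5 of the 7 of the heavy chain, whereas over the 20900 probe sets of similar brightness it was the lowest in 14.3% and the highest in 35.6%. Its median deviation from the mean of the 6 arrays was -0.18 over the heavy chain probe sets and -0.054 over all 26, against 0.070 over probe sets of similar brightness. For CRE 1 and CRE 3 the median deviation over the heavy chain probe sets was -0.021 and 0.046. For ERT 1, ERT 2 and ERT 3 it was 0.12, 0.085 and -0.043. The part of array-wide brightness differences in these counts was not tested.

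**Figure D3:**
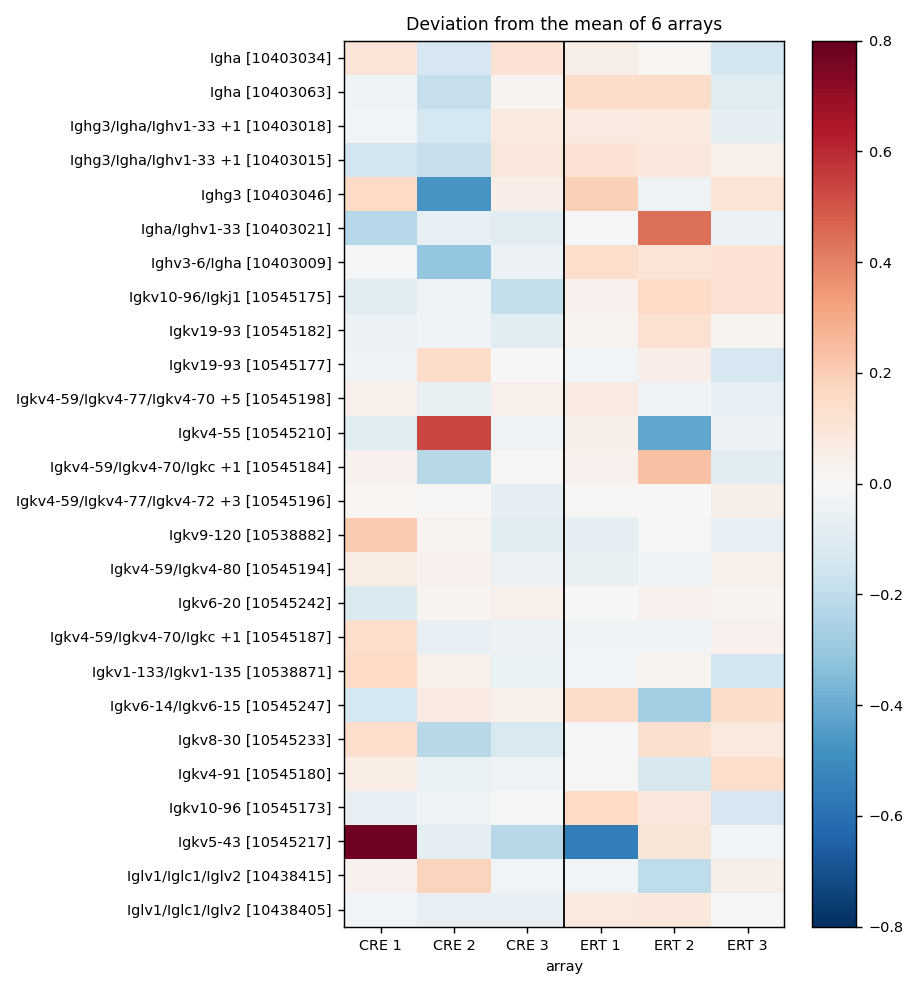
Deviation of each array (columns, CRE-labelled arrays left of ERT arrays) from the mean of the 6 arrays, in log2 units by colour, for the 26 immunoglobulin probe sets (rows, ordered by locus and brightness). Single cells stand out, such as Igkv5-43 on CRE 1, Igkv4-55 on CRE 2, Ighg3 on CRE 2 and Igha/Ighv1-33 on ERT 2.

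Brightness put the segments in the lower part of the array. The 26 had a median log2 value of 7.40 and a median percentile of 32.0, 3 lay above the 50th percentile, and 11 lay below the 25th. No kappa or lambda probe set reached the 50th percentile. Brightness depends on probe binding as well as on RNA, so these percentiles place the probe sets on the array and do not rank the segments. The median range over the 6 arrays was 0.30 log2 units, against 0.31 over all probe sets and 0.35 over those of similar brightness.

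The mu chain, the heavy chain that pre-B cells make first, was read by 3 further probe sets named Ighm. The brightest (10402991) had values of 9.56, 9.38 and 9.47 on the CRE-labelled arrays and 9.29, 9.54 and 9.26 on the ERT arrays, a difference of 0.11 ± 0.091 (adjusted p = 0.514). Probe set 10402864 had values of 8.51, 8.58 and 8.49 against 8.38, 8.46 and 8.36, with groups apart and a difference of 0.13 ± 0.052 (adjusted p = 0.254). Probe set 10403069 had values of 6.83, 6.06 and 6.69 against 6.75, 6.61 and 6.65, a difference of -0.15 ± 0.20 (adjusted p = 0.680), with CRE 2 lowest as in the heavy chain segments.

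Of the list of 9 genes, the mu chain and its partners, 7 lay above the 75th percentile of brightness, and none passed the test. The brightest Ighm probe set stood at the 66.2nd percentile and Jchain at the 27.9th. Igll1, which encodes lambda5 of the surrogate light chain, had values of 14.38, 14.29 and 14.34 on the CRE-labelled arrays and 14.34, 14.32 and 14.33 on the ERT arrays, a difference of 0.0086 with a 95% interval from -0.10 to 0.12. Vpreb1, which encodes the other part of the surrogate light chain, had values of 11.52, 11.58 and 11.55 against 11.63, 11.60 and 11.62, a difference of -0.065 with an interval from -0.17 to 0.042. The groups overlapped for Igll1 and were apart by a small gap for Vpreb1. Vpreb3 had a difference of 0.12 ± 0.044 (adjusted p = 0.231), Vpreb2 of -0.021 ± 0.070, and the signalling chains Cd79a and Cd79b of -0.046 and 0.0070. Jchain, which links the polymers of IgM and IgA, had values of 7.16, 6.94 and 7.20 against 7.23, 7.36 and 7.19, a difference of -0.16 ± 0.089. Of the 9 genes in this list, 0 were higher, 0 lower and 9 did not pass (median 0.0070), and Mzb1, a chaperone of antibody chains, had 0.086.

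Of 16 tested genes of V(D)J recombination and end joining, 0 were higher, 0 lower and 16 did not pass over all probe sets, with a median of -0.060. Rag2, a subunit of the recombinase that cuts the segments, had values of 8.91, 8.54 and 8.87 on the CRE-labelled arrays and 9.32, 9.28 and 9.23 on the ERT arrays, a difference of -0.50 ± 0.11. Dntt, which encodes the terminal transferase that adds bases at the joints, had values of 11.81, 11.78 and 11.88 against 11.53, 11.41 and 11.54, a difference of 0.33 ± 0.059. The groups of both genes were apart, with adjusted p of 0.155 for Rag2 and 0.135 for Dntt over all probe sets, and 0.0335 and 0.0246 over the named and brighter ones, where both passed. Rag1, the catalytic partner of Rag2, had a difference of -0.043 ± 0.061 with overlapping groups, and the end joining gene Xrcc5 of -0.25 ± 0.067 (adjusted p = 0.188).

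**Figure D4:**
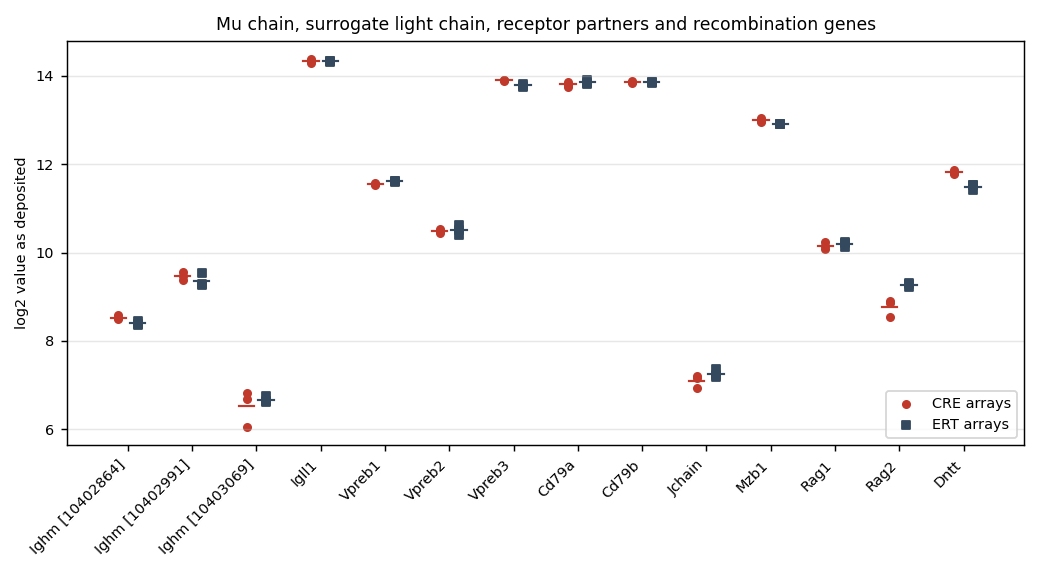
Deposited log2 value (y axis) of the 3 mu chain probe sets and of surrogate light chain, receptor partner and recombination genes (x axis) on each array, with circles for CRE-labelled arrays at the left of each gene, squares for ERT arrays at the right and bars for means of 3 arrays. Igll1, Cd79a and Cd79b overlap between the groups, while Rag2 is lower and Dntt higher on all 3 CRE-labelled arrays.

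Among 8 tested genes of class switching and hypermutation, 0 were higher, 0 lower and 8 did not pass, with a median of -0.12. Apex1, a nuclease that cuts abasic sites, had a difference of -0.31 ± 0.063 (adjusted p = 0.149, and 0.0321 over the named and brighter probe sets), the translesion polymerase gene Polh had -0.20 ± 0.057 and Mcm3ap had 0.22 ± 0.059. Among 28 factors known at immunoglobulin promoters, enhancers and loop anchors, 0 were higher, 0 lower and 28 did not pass, with a median of 0.0048. Pou2f2, which encodes the octamer factor OCT2 of V promoters, had values of 9.48, 9.37 and 9.49 on the CRE-labelled arrays and 9.63, 9.64 and 9.63 on the ERT arrays, a difference of -0.19 ± 0.052 (adjusted p = 0.188). Ikzf3, a relative of Ikaros, had 0.19 ± 0.049 and Mef2c, a factor of early B cells, -0.16 ± 0.044, neither of which passed.

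Markers of other antibody-forming cells were read beside the segments. The list of 10 plasma cell markers averaged 9.57 to 9.64 on the CRE-labelled arrays and 9.54 to 9.55 on the ERT arrays, with 0 higher and 0 lower, and its median percentile of brightness was 66.9. Its members stood apart in brightness, with Prdm1 at the 30.8th and Tnfrsf17 at the 34.3rd percentile, Sdc1 at the 69.5th and Xbp1, which pre-B cells also express, at the 96.8th. The 7 mature B cell markers averaged 8.04 to 8.17 against 8.0 to 8.11 (CRE-labelled and ERT arrays), with 0 higher and 0 lower over all probe sets, and Cr2 lower over the named and brighter ones (-0.34, adjusted p = 0.0321). Of 10 T and NK cell markers 1 was lower, Cd2, which pre-B cells also express (-0.64, adjusted p = 0.0482), and the list averaged 7.51 to 7.61 on the CRE-labelled arrays against 7.45 to 7.53 on the ERT arrays. Of 11 myeloid and 9 stromal markers none passed over all probe sets, and the myeloid gene Lyz2 was higher over the named and brighter ones (0.79, adjusted p = 0.0097). Both lists averaged higher on every CRE-labelled array, at 7.49 to 7.58 against 7.32 to 7.39 and at 7.76 to 7.92 against 7.66 to 7.72. The median difference was 0.131 for the myeloid and 0.125 for the stromal list. Of the 20900 probe sets in the brightness range of the immunoglobulin segments, 15826 also had a positive difference, with a median of 0.095. Whether the myeloid and stromal lists differ from this background was not tested. The part of these marker lists in the immunoglobulin values was not tested.

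V segments of the T cell receptor loci, which B cells do not rearrange as a rule, were read by 52 probe sets, of which 41 had distinct values and 11 repeated another on all arrays. The 52 had a median percentile of brightness of 43.9. They were not all dim: 2 Trgv probe sets (10403821 and 10407940) stood at the 99.7th and 99.4th percentile. Of the 41, 33 had a positive difference (80.5%), close to the 75.7% of probe sets in the brightness range of the immunoglobulin segments, and the median was 0.13. The groups were apart with higher CRE-labelled values in 6 of 41, against 17.5% of all probe sets, and with lower ones in 1, against 10.9%. None of the 52 was called over all probe sets. Over the named and brighter ones 2 of 37, repeats counted, were called (smallest limma adjusted p 0.0496). That compares with 5.34% of all probe sets in that fit. The 26 immunoglobulin probe sets had 10 positive and 16 negative differences and no repeated values. The difference between both families of segments was not tested.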

How the data were processed

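RNA of 6 samples, 3 labelled CRE and 3 labelled ERT by their titles, was measured on Affymetrix mouse gene arrays. The authors deposited 1 log2 value per probe set and array. The submitters' processing notes list RMA and Partek 6.5, with no order or role, and the deposited values were not normalized again. Probe-level files were not used here. For the deposited values, no genome build was given in the sources used here. Precision is limited by the number of arrays, 3 a group.

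Symbols came from the annotation table of the array (23410 of 35556 probe sets named) and were checked by Entrez identifier in RefSeq. All probe sets, dim ones included, were fitted with limma 3.58.1 under R 4.3.3 (functions lmFit and eBayes, 2.14 prior degrees of freedom), CRE minus ERT, two-sided, with Benjamini-Hochberg adjustment over all of them and a threshold of 0.05. A gene outside the 26 with several probe sets was represented by the brightest. Tables and figures were made with Python 3.11.15, pandas 2.3.3 and matplotlib 3.10.9. The procedure was tested on simulated data with the means and spread of these probe sets. Over all probe sets it recovered 38 of 100 changes of 0.5 log2 units and 75 of 100 of 1 log2 unit. Over the named and brighter ones it recovered 81 and 98. False calls numbered 3 and 12 in these fits.

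The 26 members, the lists and the tests were chosen with earlier results of these data known. Named were the 6 largest rises and falls, the 6 brightest and the 6 most variable probe sets, every constant region probe set and any called one, which gave 22, plus 12 companion genes and the 3 smallest p values of each companion list. Alternatives were a filter at the 25th percentile of means (a log2 value of 7.01), quantile normalization, median centring, cyclic loess, array weights, trend with robust estimation, a replicate block, leaving out each array, a threshold of 0.01 and single-symbol probe sets alone. Fits over named probe sets alone, with and without the filter, were added after seeing the data.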

Additional observations from a re-analysis of the deposited data

How the results depend on the processing

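The count of immunoglobulin probe sets called was 0 in each of 17 alternatives, and the smallest adjusted p of any of them was 0.0738, for Igkv10-96/Igkj1 over the named and brighter probe sets. Members had negative differences in 16 of 26 as deposited, 21 after quantile normalization or cyclic loess and 23 after centring, with medians of -0.12, -0.12 and -0.14 (heavy chain -0.27, -0.26 and -0.26, kappa -0.090, -0.096 and -0.12), while T cell receptor V segments kept positive medians of 0.073, 0.080 and 0.023. Centring moved the median of all probe sets to -0.056, against 0.046 as deposited. The number of all probe sets called was 20 as deposited, 146 with the filter at the 25th percentile, 51 after quantile normalization, 66 after centring, 51 after cyclic loess, 205 with trend and robust estimation, 48 with array weights, 0 with the replicate block, 5 at a threshold of 0.01, 366 over named probe sets and 999 over named and brighter ones, and 3 to 4 with an array left out. The cause of these differences was not tested. Replicate numbers did not pair the arrays: deviations of same-numbered arrays correlated at 0.16, 0.024 and -0.20, and the replicate block left 0 members called, as without it. Rag2, Dntt and Apex1 passed over the named and brighter probe sets, and Dntt over all named ones (adjusted p = 0.0418).

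Signs turned for 9 of 22 named members and 4 of 20 companions, none past the threshold in either fit. After quantile normalization the differences were -0.0081 for Igkv9-120, -0.037 for Igkv19-93 (10545177), -0.065 for 10545187, -0.090 for 10545198, 0.0091 for Vpreb2 and -0.0074 for Cd79b. After centring they were -0.045 for Igha (10403034), -0.0068 for Igkv1-133/Igkv1-135, -0.0062 for Igkv9-120, -0.032 for Igkv19-93, -0.083 for 10545187, -0.089 for 10545198, -0.094 for Igll1, -0.095 for Cd79b and -0.017 for Mzb1. After cyclic loess they were -0.014 for Igkv9-120, -0.036 for Igkv19-93, -0.069 for 10545187, -0.096 for 10545198, -0.0036 for Igll1 and 0.010 for Vpreb2. With array weights they were -0.0046 for 10545198 and -0.00044 for Cd79b. With an array left out, ranges were -0.11 to 0.00082 for 10403018, -0.00031 to 0.14 for Igha (10403034), -0.30 to 0.019 for Ighg3, -0.047 to 0.059 for 10545187, -0.017 to 0.054 for 10545198, -0.16 to 0.045 for Igkv6-14/Igkv6-15, -0.011 to 0.031 for Igll1, -0.078 to 0.036 for Vpreb2 and -0.0057 to 0.018 for Cd79b. The cause was not tested.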
